A study of Mus musculus with 6 samples.

Results

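Grb10 and a group of other imprinted growth genes were compared between mouse megakaryocyte-erythroid progenitors (MEP, the marrow precursors of red cells and platelets) of Fog1ki/ki and Fog1+/+ mice. The group comprised 10 genes (Grb10, Plagl1, Peg3, Mest, Dlk1, Cdkn1c, Ndn, Igf2, Gnas and Igf2r), of which 9 had a probe set that the platform annotation assigns to that gene alone, out of 19661 genes measured in this way. Each of the 9 had 1 such probe set. The probe set of Gnas, which encodes the stimulatory G protein alpha subunit, carries a further gene symbol, so Gnas was not analysed here. Grb10 was picked because of its difference between these same arrays, so its difference is given as a description without a test, and the other genes were added for their known function.

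The Fog1ki/ki group held 3 arrays from mice homozygous for a knock-in at Fog1, and the Fog1+/+ group held 3 arrays from mice with intact Fog1. Both were of strain B6.129, and in both the bone marrow cells were sorted as negative for lineage markers, Sca1 and CD34, positive for Kit and low for FcgrII/III. The arrays are labelled as biological replicates, with no number of animals for any of them, so p-values measure the spread between these samples only. The labels give neither age nor sex, nor the exact change made by the knock-in. FOG1 is the cofactor of the transcription factor GATA1, and, as generally known of this mouse line, the altered protein no longer binds the NuRD chromatin complex.

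Imprinted genes are read from the copy inherited from one parent, and many of them set the growth of the embryo and placenta. Some restrain growth, such as Grb10, Cdkn1c and Igf2r, which act from the maternal copy, and others promote it, such as Igf2 from the paternal copy. Several of these genes are also known from haematopoietic stem cells, in which they are linked to quiescence. The arrays read both parental copies together, so none of the values below says which copy was expressed.

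Kit, on which the cells were sorted, and the MEP genes Klf1 and Gata1 gave high values in all arrays. Kit lay between 9.72 and 10.05 in Fog1ki/ki and between 10.26 and 10.30 in Fog1+/+, Klf1 between 8.23 and 8.35 in Fog1ki/ki and between 8.27 and 8.37 in Fog1+/+, and Gata1 between 8.09 and 8.47 in Fog1ki/ki and between 8.54 and 8.57 in Fog1+/+, all on the log2 scale and all above the upper quartiles of the arrays (7.82 to 7.93). Of the other measured MEP markers, Nfe2, Gfi1b, Lmo2 and Ldb1 also lay above these quartiles in all arrays. Tal1 lay near them, and Zfpm1, Epor and Itga2b lay below them in all arrays. Itga2b was the lowest, between 6.73 and 6.86 in Fog1ki/ki and between 6.32 and 6.67 in Fog1+/+. None of 11 measured MEP markers passed the test of genotype (0 in limma, while 2 lay higher and 2 lower in Fog1ki/ki with an unadjusted p under 0.05). Replicate 3 of each genotype had low values of the Y-linked genes Eif2s3y, Uty and Kdm5d (means of 4.14 in Fog1ki/ki and 4.16 in Fog1+/+, against at least 8.79 in the other 4 arrays), so these arrays differ from the rest in a way that genotype does not set.

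Grb10 was lower in Fog1ki/ki. It encodes an adaptor protein that binds the activated insulin and IGF1 receptors and dampens their signalling, and that also binds Kit. Its value was 5.41, 5.61 and 5.77 in the Fog1ki/ki arrays and 7.66, 7.34 and 7.96 in the Fog1+/+ arrays (log2). All Fog1ki/ki arrays lay below all Fog1+/+ arrays, with a gap of 1.57 between the nearest arrays of the genotypes. The means were 5.60 ± 0.18 in Fog1ki/ki and 7.65 ± 0.31 in Fog1+/+ (SD, n = 3 each), a log2 difference of -2.06, or 4.16-fold lower. This was the difference by which it was chosen, and it ranked 4 from the most negative of all 19661 genes. Without replicates 3 the log2 difference was -1.99, and omitting any single array gave values from -2.21 to -1.90. In Fog1+/+ the gene lay above the array medians over genes (6.19 to 6.20), and in Fog1ki/ki it lay below them (6.16 to 6.31) and above the lower quartiles (5.02 to 5.12). Because the cells were measured in bulk, fewer Grb10-expressing cells and less Grb10 RNA per cell cannot be told apart.

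The start regions of Grb10 are shown because it was the gene that stood apart, with that of Igf2r, a member whose genotypes overlapped, for comparison. They run from 250 bases before to 50 bases after each annotated start (RefSeq, GRCm38.p6), 5′ to 3′ along the gene. Capitals mark every CG dinucleotide, the kind of site that can carry DNA methylation. Methylation was not measured, so the capitals do not show which sites are methylated or belong to an imprint. Grb10 has 2 such windows on the minus strand, chr11:12037371-12037670 at the upstream start and chr11:12027922-12028221 at the downstream one, and Igf2r has chr17:12769657-12769956 on the minus strand.
Grb10 upstream start: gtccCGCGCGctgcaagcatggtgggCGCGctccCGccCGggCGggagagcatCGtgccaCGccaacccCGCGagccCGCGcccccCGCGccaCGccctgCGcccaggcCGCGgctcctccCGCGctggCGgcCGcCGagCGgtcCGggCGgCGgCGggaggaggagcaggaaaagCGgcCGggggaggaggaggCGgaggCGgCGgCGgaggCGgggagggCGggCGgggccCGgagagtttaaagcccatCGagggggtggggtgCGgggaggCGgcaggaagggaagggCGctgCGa
Grb10 downstream start: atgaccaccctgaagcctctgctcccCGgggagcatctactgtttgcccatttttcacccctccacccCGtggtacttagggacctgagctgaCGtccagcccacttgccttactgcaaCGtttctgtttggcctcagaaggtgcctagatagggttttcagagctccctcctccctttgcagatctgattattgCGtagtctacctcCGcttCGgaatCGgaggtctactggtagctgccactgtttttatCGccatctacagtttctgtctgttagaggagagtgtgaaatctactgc
Igf2r: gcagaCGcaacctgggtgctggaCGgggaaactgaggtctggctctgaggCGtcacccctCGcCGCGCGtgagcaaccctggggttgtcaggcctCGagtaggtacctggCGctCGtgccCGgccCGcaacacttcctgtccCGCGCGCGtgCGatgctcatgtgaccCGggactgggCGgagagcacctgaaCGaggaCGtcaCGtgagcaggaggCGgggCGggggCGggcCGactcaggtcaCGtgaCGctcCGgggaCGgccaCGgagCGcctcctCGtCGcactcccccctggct

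The upstream Grb10 window held 45 CG dinucleotides, and 1.93% of the 32851 windows in the RefSeq table held as many or more. The downstream Grb10 window held 9, the Igf2r window 34, and the median of all windows was 7. The windows of the group, 18 from 9 genes with Gnas among them and Cdkn1c not in the table, held between 2 and 45. The hexamers bound by GATA factors (AGATAA or AGATAG, and with a leading T instead TGATAA or TGATAG, searched on both strands) were found in 3 of the 18 windows, or 16.7%, against 29.8% of all windows. The upstream Grb10 window had none, and the downstream one had AGATAG from position -103 relative to the start. The remaining matches were in Dlk1 and in 1 of the Gnas windows. The matches thus lay in 3 of the 9 genes. Some genes have several windows, some of which overlap, and the share by gene was not counted over all genes. No shortfall can therefore be read from the share by window. A match is a string of letters, not a measured binding site, and the array does not separate transcripts by their start.

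Among the 9 genes, Grb10 alone had genotypes that did not overlap. The arrays overlapped in each of the other 8 genes, while 14.8% of all 19661 genes had genotypes that did not overlap, 6.53% with Fog1ki/ki lower. None of the 8 passed in limma (0 with an adjusted and 0 with an unadjusted p under 0.05, smallest adjusted p = 0.810). Over all genes 152 passed, or 0.773% (74 higher and 78 lower in Fog1ki/ki, the lower ones making 0.397%, and 43 higher and 73 lower with arrays centred on their medians). Grb10 was chosen by this comparison from among those 152, so its place there is not counted for the group. The 8 log2 differences ran from -0.06 to 0.15, 6 of them negative and 2 positive. Their median was -0.02, beside 0.02 over all genes, and their median size without regard to sign was 0.03, beside 0.10 over all genes. Cdkn1c, Mest, Ndn and Peg3 lay below the array medians over genes (6.16 to 6.31) in all arrays, and Igf2 lay near them. No detection calls were used, so small differences at these levels may reflect little signal rather than steady expression. The 95% intervals of the 8 lay between -0.37 and 0.48. The set of 8 genes averaged 6.13, 6.17 and 6.31 in the Fog1ki/ki arrays and 6.26, 6.17 and 6.18 in the Fog1+/+ arrays.

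**Figure D1:**
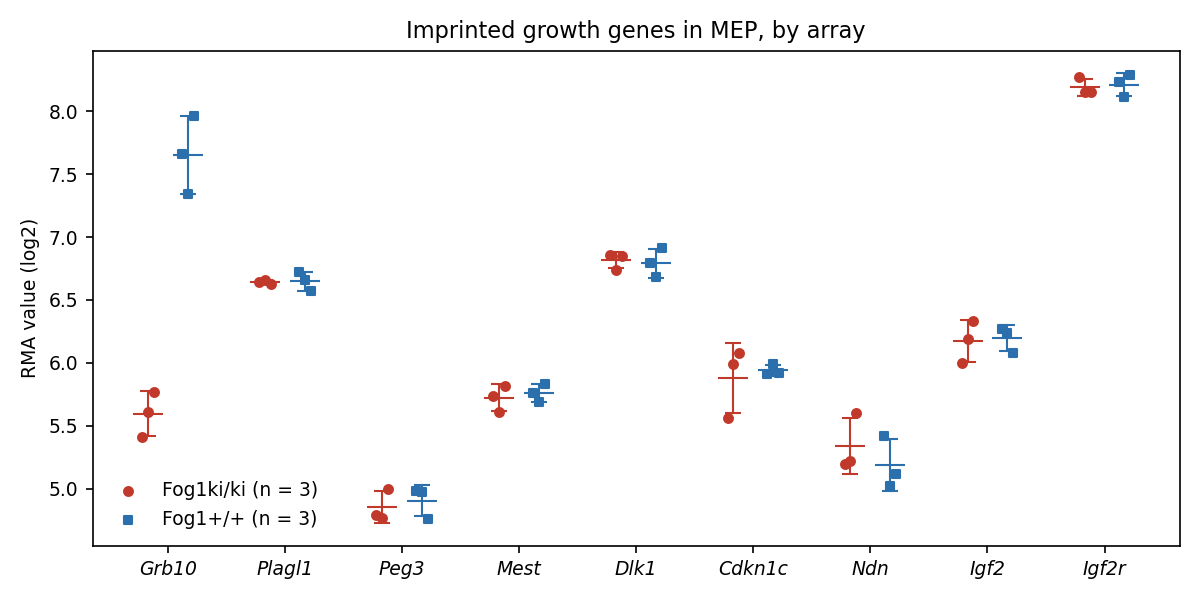
RMA values (log2, vertical axis) of the 9 measured imprinted growth genes, with each array as a point and the mean and SD as bars, Fog1ki/ki as red circles on the left of each pair and Fog1+/+ as blue squares on the right (n = 3 each). Grb10 sits between 5.41 and 5.77 in Fog1ki/ki and between 7.34 and 7.96 in Fog1+/+, while the points of the genotypes overlap in each of the other 8 genes.

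The ligand and receptor genes of the group showed no detectable difference. Igf2, the fetal growth factor that signals through the IGF1 and insulin receptors, measured 6.0, 6.19 and 6.33 in Fog1ki/ki and 6.27, 6.24 and 6.08 in Fog1+/+, a log2 difference of -0.02 (95% interval -0.28 to 0.23). Igf2r, the receptor that carries IGF2 to the lysosome and so lowers its level, measured 8.27, 8.15 and 8.15 in Fog1ki/ki and 8.23, 8.11 and 8.29 in Fog1+/+, a log2 difference of -0.02 (95% interval -0.23 to 0.19). The 6 Igf2r values spanned 0.18, close to the smallest span in the group. Dlk1, a membrane protein related to Notch ligands, measured 6.86, 6.74 and 6.85 in Fog1ki/ki and 6.79, 6.68 and 6.91 in Fog1+/+, a log2 difference of 0.02 (95% interval -0.20 to 0.24). In all 3 genes the order of the arrays mixed the genotypes.

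The nuclear growth regulators likewise gave overlapping values. Cdkn1c, the cyclin-dependent kinase inhibitor p57, measured 5.56, 5.99 and 6.08 in Fog1ki/ki and 5.91, 5.99 and 5.92 in Fog1+/+, a log2 difference of -0.06 (95% interval -0.37 to 0.25). Fog1ki/ki replicate 1 was the lowest of the 6 arrays. Plagl1, a zinc finger transcription factor that slows growth in cultured cells, measured 6.64, 6.66 and 6.63 in Fog1ki/ki and 6.72, 6.66 and 6.57 in Fog1+/+. Its values spanned 0.15, the smallest span in the group, and its log2 difference was -0.01 (95% interval -0.21 to 0.19). Peg3, a zinc finger protein expressed from the paternal copy, measured 4.79, 4.77 and 5.0 in Fog1ki/ki and 4.98, 4.97 and 4.76 in Fog1+/+, with a log2 difference of -0.05 (95% interval -0.29 to 0.19). All Peg3 values were below the lower quartiles of the arrays, and RMA compresses differences at such levels. Ndn, which encodes necdin, a MAGE family protein that holds cells out of division, measured 5.20, 5.22 and 5.60 in Fog1ki/ki and 5.42, 5.02 and 5.12 in Fog1+/+. Ndn had the largest difference of the 8, a log2 value of 0.15 (SE 0.14, 95% interval -0.17 to 0.48, adjusted p = 0.810), with Fog1ki/ki replicate 3 the highest array.

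Mest, which encodes an alpha/beta hydrolase fold protein and is read from the paternal copy, measured 5.74, 5.61 and 5.82 in Fog1ki/ki and 5.76, 5.69 and 5.83 in Fog1+/+, a log2 difference of -0.04 (95% interval -0.25 to 0.18). The genes of microRNAs that lie within members of the group have probe sets of their own. Mir335, within Mest, had a log2 difference of 0.10 (95% interval -0.19 to 0.39), and Mir483, within Igf2, one of 0.20 (95% interval -0.03 to 0.43), and neither passed. These probe sets read RNA from the locus of the microRNA, not the mature microRNA.

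**Figure D2:**
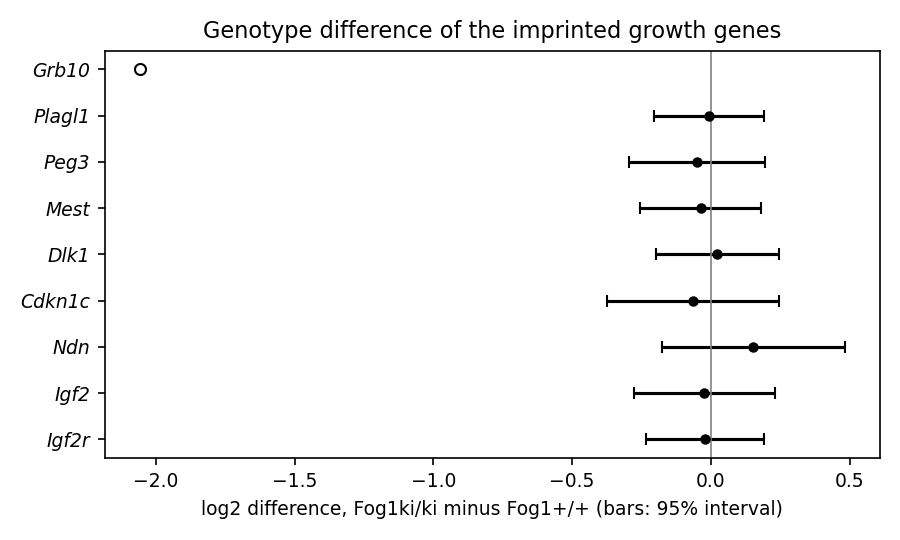
Log2 differences, Fog1ki/ki minus Fog1+/+, of the 9 measured imprinted growth genes (horizontal axis), with 95% intervals from limma as bars and n = 3 arrays per genotype; Grb10, chosen for its difference, is an open circle with no interval. Grb10 lies at -2.06, and the intervals of the other 8 genes all include 0 and end at -0.37 and 0.48.

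No gene next to Grb10 on chromosome 11 passed the test. Ddc and Cobl, which flank Grb10 and are imprinted in some tissues, had log2 differences of 0.12 (SE 0.10) and 0.05 (SE 0.14). Ddc encodes the decarboxylase that forms dopamine and serotonin, and Cobl an actin nucleator. Ikzf1, the lymphoid transcription factor gene 3 places away, measured 9.99, 9.90 and 9.89 in Fog1ki/ki and 10.03, 10.08 and 10.23 in Fog1+/+, a log2 difference of -0.19 (SE 0.09) with a limma adjusted p of 0.598. Of the 3 tested genes on each side of Grb10, 0 of 6 passed limma's test (0 at an unadjusted p under 0.05), beside 0.773% of all genes. Their log2 differences ran from -0.19 to 0.17.

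The tested genes next to each of the other 8 members, in order of start position, gave 16 genes, of which 0 passed limma's test. Of the 16, 3 had an unadjusted p under 0.05, all lower in Fog1ki/ki: Airn and the genes that flank Plagl1, Zc2hc1b and Sf3b5. The share of all genes at that unadjusted p was not counted, so this count has no background. The log2 differences of the 16 ran from -0.35 to 0.20, the latter for Mir483. Mir483 and Mir335 lie within Igf2 and Mest rather than beside them. The next genes there were Ins2 (0.11, all Fog1ki/ki arrays higher) and Copg2 (-0.04). Zc2hc1b measured 3.72, 4.15 and 3.93 in Fog1ki/ki and 4.26, 4.35 and 4.24 in Fog1+/+, which differ by -0.35 on the log2 scale (SE 0.12, with an adjusted p of 0.350 in limma). Sf3b5 measured 10.35, 10.21 and 10.07 in Fog1ki/ki and 10.61, 10.43 and 10.36 in Fog1+/+, which put the mean of Fog1ki/ki minus that of Fog1+/+ at -0.26 on the log2 scale (SE 0.11, with an adjusted p of 0.510 in limma). The genotypes did not overlap for either gene, and neither passed. Of the 16 genes, only these and Airn had genotypes that did not overlap. Over all genes 14.8% had genotypes that did not overlap, 6.53% with Fog1ki/ki lower, and 0.773% passed. Several of the 16 belong to the same imprinted clusters as the members: Meg3, the maternally expressed non-coding RNA beside Dlk1, had a log2 difference of 0.07, Magel2, beside Ndn, one of -0.03, Usp29 and Zim1, which flank Peg3, 0.08 and 0.09, and Slc22a18, beside Cdkn1c, 0.07. Airn, the non-coding RNA that runs across Igf2r on the opposite strand, measured 7.58, 7.52 and 7.44 in Fog1ki/ki and 7.73, 7.66 and 8.13 in Fog1+/+. Its genotypes did not overlap, and its log2 difference of -0.33 (SE 0.13) did not pass (limma adjusted p = 0.464). Whether its probes tell the strands apart is not given in the sources used here.

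**Figure D3:**
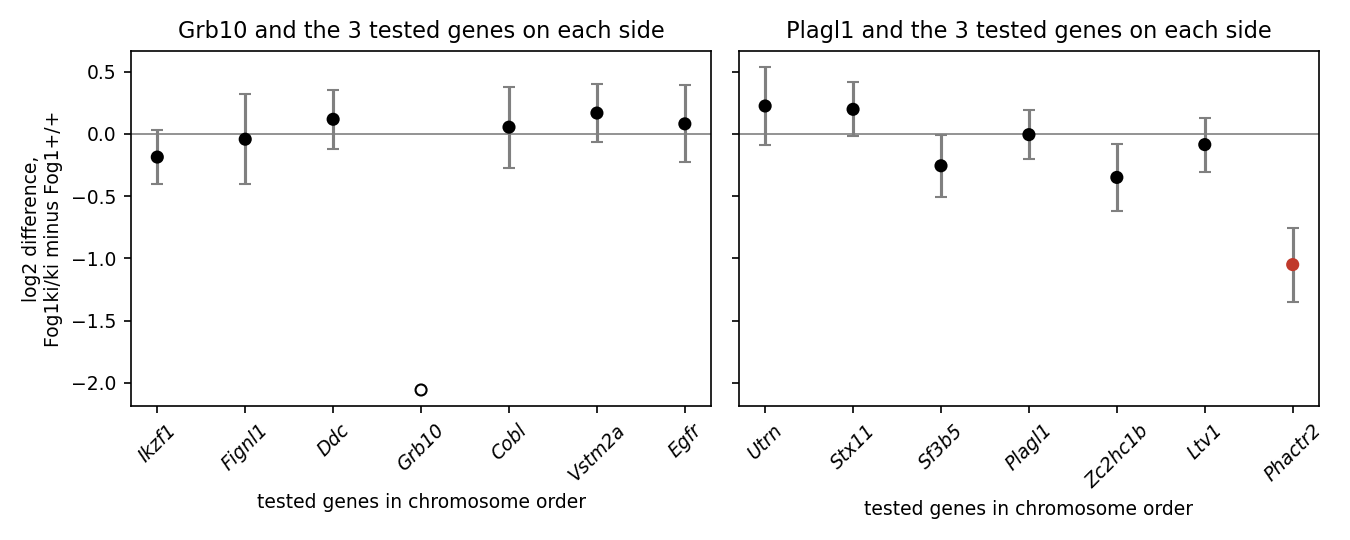
Log2 differences, Fog1ki/ki minus Fog1+/+ (vertical axis), of Grb10 and Plagl1 and of the 3 tested genes on each side, in chromosome order, with 95% intervals as bars; red marks an adjusted p under 0.05, and the open circle with no interval is Grb10, which was chosen for its difference. The 6 genes around Grb10 lie between -0.19 and 0.17, and to the right of Plagl1, which lies at -0.01, Phactr2 lies at -1.05.

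Outside the group, 61 of 72 further genes reported as imprinted in at least some tissues were measured. Of these, 0 rose, 2 fell and 59 did not pass in limma, a share of 3.28% past the threshold beside 0.773% of all genes (lower ones 0.397%). The list was chosen with earlier results of these data known, so this share is a description only. The median log2 difference of the list was 0.05, beside 0.02 over all genes. One that fell was Gatm, the enzyme of the first step of creatine synthesis, which is imprinted in mouse placenta. Gatm measured 8.08, 7.97 and 8.58 in Fog1ki/ki and 9.47, 9.15 and 9.77 in Fog1+/+, a log2 difference of -1.25 (SE 0.19) with an adjusted p of 0.0246 in limma and with all Fog1ki/ki arrays lower. The other was Phactr2, a regulator of actin and protein phosphatase 1, 3 tested genes from Plagl1 on chromosome 10. Phactr2 measured 5.13, 4.89 and 5.08 in Fog1ki/ki and 6.24, 6.19 and 5.82 in Fog1+/+, a log2 difference of -1.05 (SE 0.13) with an adjusted p of 0.00864 in limma, again with all Fog1ki/ki arrays lower.

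Both calls were lost in some refits with arrays left out. In those with 1 array left out, fewer genes passed over the whole table as well (60 to 134, beside 152 over all arrays). Gatm lost its call without Fog1+/+ replicate 1 or 3 (limma adjusted p = 0.113 and 0.111), Fog1ki/ki replicate 1 or 2 (limma adjusted p = 0.0747 and 0.112) or both replicates 3 (limma adjusted p = 0.0603), while its log2 difference stayed between -1.44 and -1.10 in 16 alternatives. Phactr2 lost its call without Fog1+/+ replicate 1 (limma adjusted p = 0.0507) or both replicates 3 (limma adjusted p = 0.0532), and its log2 difference stayed between -1.21 and -0.97. The count of imprinted genes past the threshold was thus 2 over all arrays and between 0 and 2 with each array left out.

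The close relatives of the members showed no change past the threshold. Since only 0.773% of all genes passed, lists of 13 or 7 genes mostly have none. GRB7 and GRB14 are the other adaptors of the Grb7 family, which share with GRB10 the domains that bind activated receptors. Grb7 measured 5.58, 6.09 and 5.96 in Fog1ki/ki and 5.84, 5.79 and 6.13 in Fog1+/+, a log2 difference of -0.04 (95% interval -0.38 to 0.30), and Grb14 had one of -0.04 (95% interval -0.28 to 0.21). Of 13 measured relatives of the members, 0 passed limma's test and 0 had an unadjusted p under 0.05, with a median of 0.11. The highest were Plag1, a zinc finger gene related to Plagl1 (0.24), and Nsmce3, related to Ndn (0.18), and the lowest were Gnal, related to Gnas (-0.11), and Grb7. Among 7 CDK inhibitors, Cdkn1c included, 0 passed limma's test and 0 had an unadjusted p under 0.05, with a median of 0.19. These were led by Cdkn2c at 0.35 and by Cdkn3 and Cdkn2d at 0.21 each, with Cdkn2a at -0.09 and Cdkn1c at -0.06 the lowest.

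The pathway on which GRB10 acts had no gene past the threshold. Since only 0.773% of all genes passed, lists of 51 or 24 genes often have none. Of 51 measured insulin and IGF signalling genes, 0 passed limma's test and 4 had an unadjusted p under 0.05, 2 higher and 2 lower, with a median log2 difference of 0. Igfbp4, a secreted protein that binds IGFs, had the smallest p, at 7.02, 6.78 and 6.91 in Fog1ki/ki and 6.67, 6.38 and 6.63 in Fog1+/+ (log2 difference 0.34, SE 0.11, limma adjusted p = 0.329). The receptors that GRB10 binds, named here after their values were seen, were Insr with a log2 difference of -0.11 (95% interval -0.38 to 0.17), Igf1r with -0.15 (95% interval -0.45 to 0.15) and Kit with -0.38 (95% interval -0.62 to -0.14, limma adjusted p = 0.232). Of the 24 measured partners of the members, among them cyclins, adenylate cyclases and receptors, 0 passed limma's test and 4 had an unadjusted p under 0.05, 1 higher and 3 lower. The smallest p was that of the adenylate cyclase gene Adcy9 (log2 difference 0.37, SE 0.10, limma adjusted p = 0.214).

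**Figure D4:**
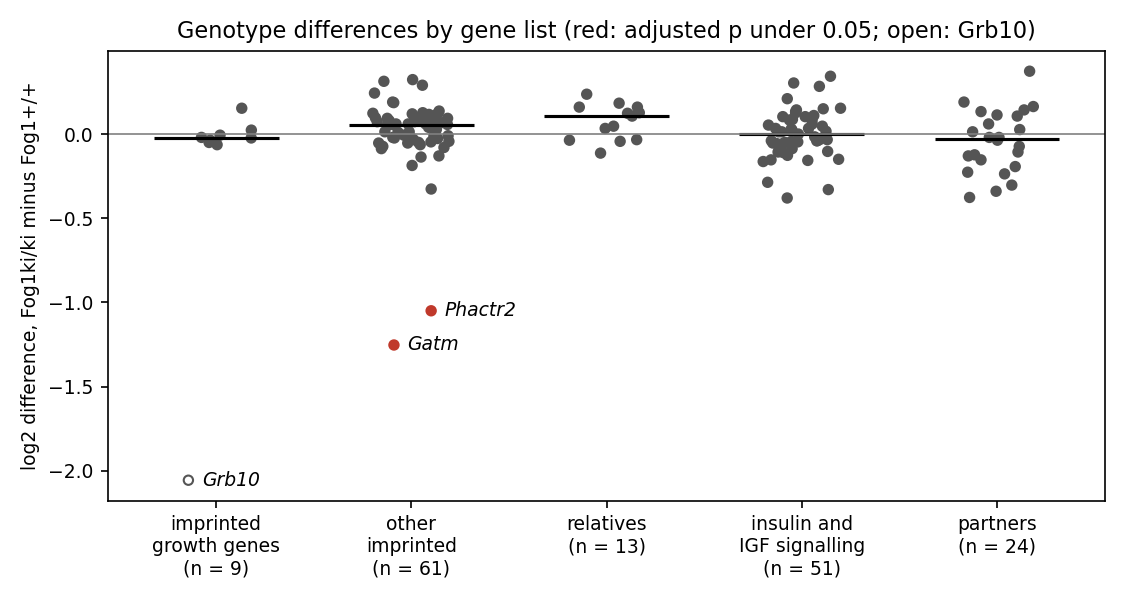
Log2 differences, Fog1ki/ki minus Fog1+/+ (vertical axis), with each measured gene as a point, the list median as a line and the number of genes under each list; red marks an adjusted p under 0.05 and the open circle is Grb10. Apart from Grb10 at -2.06, Gatm at -1.25 and Phactr2 at -1.05, the points of all 5 lists lie between -0.38 and 0.37.

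Markers of other cells were measured beside these values. Of 17 mast cell markers, 3 rose (Ms4a2, Rgs13 and Gata2), 0 fell and 14 did not pass, or 17.6% past the threshold beside 0.773% of all genes. The list was chosen with earlier results of these data known, so this share is a description only. The median log2 difference of the list was 0.21, with 5 genes above 1 (Ms4a2 at 3.79, Rgs13 at 2.82, Fcer1a at 1.91, Gzmb at 1.27 and Gata2 at 1.14) and Kit the lowest at -0.38. The mean level of the list was 5.78 to 6.23 over the Fog1ki/ki arrays and 5.24 to 5.26 over the Fog1+/+ arrays. The list mean was thus higher in each Fog1ki/ki array than in any Fog1+/+ array, while Grb10 was lower in the Fog1ki/ki arrays. Other markers of the list lay close to 0, among them Tpsb2 at 0.07, Hdc at 0.06, Mcpt2 at 0.10 and Tpsab1 at 0.13. Whether mast cells were present, and whether cell make-up has a part in the lower Grb10 values, was not tested. Of 13 stem cell markers, 0 passed limma's test (with an unadjusted p under 0.05, 2 were higher and 2 lower), and their mean was 6.38 to 6.41 in Fog1ki/ki and 6.32 to 6.38 in Fog1+/+. Of 13 stromal and endothelial markers, 0 passed limma's test (0 at an unadjusted p under 0.05), with means of 5.23 to 5.41 in Fog1ki/ki and 5.32 to 5.33 in Fog1+/+. Neither did any of 8 basophil, 13 granulocyte and monocyte or 11 lymphoid markers pass (0 in limma, and with an unadjusted p under 0.05, 3 basophil, 0 granulocyte and monocyte and 1 lymphoid marker). The 3 basophil markers were Mcpt8 (log2 difference 1.03) and Prg2 (0.83), both higher in Fog1ki/ki, and Ifitm1 (-0.88), which was lower.

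The genes whose values over the 6 arrays were most like those of Grb10 were sought among 227 genes with an SD over the arrays of at least 0.5. Tmem65, a mitochondrial membrane protein, had a Pearson correlation of 0.991 with Grb10, the glutathione transferase Gsta4 one of 0.990, the endoplasmic reticulum GTPase Atl1 0.981, the SH2 domain protein Sh2d4a 0.979 and the Golgi protein Glg1 0.979. Tmem65 measured 6.30, 6.20 and 6.34 in Fog1ki/ki and 7.54, 7.18 and 7.63 in Fog1+/+, with replicate 2 the lowest of the Fog1+/+ arrays as in Grb10. The most opposite were the NuRD helicase gene Chd3 (-0.992), the carbonic anhydrase Car13 (-0.989) and the prolyl hydroxylase subunit P4ha3 (-0.988). These coefficients come from 6 arrays in 2 genotypes, so any gene with a large genotype difference scores high. The other members, which had little genotype difference, would score low for that reason alone. Their correlations with Grb10 ran from -0.30 for Ndn to 0.35 for Mest, which adds nothing to the comparison of the genotypes.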

How the data were processed

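Total RNA of sorted cells was amplified with the WT-Ovation Pico system and hybridised as biotin-labelled sense cDNA, 1 sample per array, per the labels' protocols. The authors deposited log2 values (the scale was read from the numbers) made with RMA (background correction, quantile normalization and probe set summary), per the submitters' processing notes. Its version and settings are not stated in those notes, and neither detection p-values nor scan dates were used. The number of arrays limits the precision. Of 25668 probe sets, 20777 have 1 gene symbol in the platform annotation, which can be old, 232 have several and 4659 none. The brightest probe set on average stood for each of 564 genes with several, which gave 19661 genes with no filter on dim ones. RefSeq genes on GRCm38.p6 gave gene order.

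Genotype was tested in limma 3.58.1 (R 4.3.3), a two-sided moderated test from lmFit and eBayes with no covariate, over all 19661 genes. A gene passed at a Benjamini-Hochberg adjusted p under 0.05, and 95% intervals use the moderated standard error. The share of all genes with an unadjusted p under 0.05 was not counted, so such counts have no background beside them. An exact permutation test over 3 against 3 arrays was not used for single genes. Arrays were simulated with the means of the 19661 genes, independent normal noise and the measured SDs shuffled among genes. On these, limma recovered 18, 41, 48 and 50 of the 50 genes shifted by 0.5, 1, 1.5 and 2 on the log2 scale. The shuffling unlinks spread from level, so these counts do not describe dim genes in particular.

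The members, the gene lists and the rule for named genes were chosen with earlier results of these data known. The rule took all members, and up to 4 genes past the threshold per list or otherwise the one with the smallest p. For relatives and CDK inhibitors it took the 2 highest and 2 lowest. The rule also took the 3 tested genes on each side of Grb10 and the 5 most and 3 least correlated genes. For the other members, it took the genes before and after them in order of start position. Genes outside it are named as cluster members, receptors or markers. Alternatives were repeated quantile normalization, centring, a filter on the dimmest 25% of genes, averaged or all probe sets, array weights, an intensity trend, a block for the replicate number, a term for or omission of both replicates 3, and each array left out. Tables and figures used Python 3.11.15, pandas 2.3.3 and matplotlib 3.10.9.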

Additional observations from a re-analysis of the deposited data

How the results depend on the processing

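The log2 difference of Grb10 ran from -2.21 to -1.90 over the 16 alternatives. The other 8 members passed in none of 127 refits, with log2 differences from -0.20 to 0.27 and a smallest adjusted p of 0.552 in limma; the sign turned at least once in 7 of the 8, all except Peg3, so none of these has a direction. Peg3 was not refitted without the dimmest genes, being among them. With both replicates 3 left out, 24 genes passed over the whole table and 0 of the other imprinted genes (limma, 2 arrays per genotype). With each array left out in turn, the counts were 60 to 134 over the whole table, 0 to 2 of the other imprinted genes and 0 to 0 of the insulin and IGF signalling genes. With the replicate number as a block (replicate block), 133 genes passed, with 2 of the other imprinted genes and 0 of the insulin and IGF signalling genes. The number may only name the arrays: deviations from the genotype means of equally numbered arrays correlated at 0.068, -0.008 and 0.128 across genes, and Fog1ki/ki replicate 2 correlated best with Fog1+/+ replicate 1. Dim members such as Peg3 are measured least well, since RMA compresses differences near the background.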

Other observations

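Fuca2, which encodes a secreted fucosidase, is the next tested gene beyond Phactr2 as seen from Plagl1. It measured 8.18, 7.38 and 7.66 in Fog1ki/ki and 8.50, 9.04 and 8.98 in Fog1+/+, a log2 difference of -1.10 (SE 0.21) that did not pass in limma (adjusted p = 0.0630), with all Fog1ki/ki arrays lower. The gene after it, Pex3, a peroxisome assembly factor, differed by -0.26 (SE 0.12, adjusted p = 0.535). Both were chosen after their values were seen.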
